A study of Mus musculus with 6 samples.

Results

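Lipid-associated and recruited macrophage genes were followed in the liver transcriptome of obese mice. The members were 10 named genes, Trem2, Gpnmb, Cd9, Cd63, Fabp5, Lgals3, Tyrobp, Itgax, Clec7a and Ly6c2, matched by symbol and NCBI gene ID among the 21362 genes of the gene table. All 10 had counts and all 10 passed the filter on low counts. The livers came from male Mettl14f/f mice, whose floxed Mettl14 alleles can be cut by Cre recombinase. All mice started HFD (high-fat diet) at 8 weeks of age, received their vector by tail vein after 10 weeks of HFD, and gave liver RNA another 8 weeks later. The control group received AAV8-TBG-GFP (n = 3 livers) and the other group AAV8-TBG-Cre (n = 3 livers). The TBG promoter is active in hepatocytes, and macrophages, which express most of these genes, are not the cells it is meant to reach. The labels name the genotypes WT and METTL14 KO, although both groups carried the floxed alleles.

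The Mettl14 transcript served as a check of the labels. The 6 libraries held between 20356440 and 21010508 fragments assigned to genes. Mettl14 had 6.30, 6.43 and 5.81 CPM (counts scaled to library size, with TMM factors) in the AAV8-TBG-GFP livers and 4.96, 5.38 and 4.86 CPM in the AAV8-TBG-Cre livers. The groups did not overlap, but the log2 difference of -0.29 (SE 0.15) did not pass either threshold (edgeR, adjusted p = 0.337). The groups are therefore called by the vector of their label. All 8 hepatocyte markers were detected in every library, with summed levels of 90346 to 112300 CPM with GFP and 79080 to 100750 CPM with Cre.

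Macrophages in a fatty liver come from several sources. Resident Kupffer cells, which carry Clec4f and Timd4, maintain themselves in the sinusoids, whereas monocytes bearing Ly6C and CCR2 enter from the blood and differentiate in the tissue. Lipid-associated macrophages are a state described in obese fat, fatty liver and plaques, marked by the lipid receptor TREM2 and by genes for lysosomes, lipid handling and matrix. TREM2 has no signalling tail of its own and signals through the adaptor TYROBP, also called DAP12, whose phosphorylated motif recruits the kinase SYK. Dectin-1, the product of Clec7a, reaches SYK through a motif in its own tail.

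The genomic context of the members is given on the mouse assembly GRCm38.p6, from RefSeq. All 10 are protein-coding genes. Trem2 lies at chr17:48346401-48352276, Tyrobp at chr7:30413782-30417582 and Clec7a at chr6:129461591-129472785. Itgax lies at chr7:128129526-128150657, Gpnmb at chr6:49036518-49058182, Cd9 at chr6:125460266-125494760 and Cd63 at chr10:128896231-128912822. Fabp5 lies at chr3:10012585-10016610, Lgals3 at chr14:47373860-47386167 and Ly6c2 at chr15:75108161-75112066. Gpnmb, Cd9 and Clec7a thus share chromosome 6, and Tyrobp and Itgax share chromosome 7.

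RefSeq promoter windows, from 250 bases before to 50 bases after a transcription start, were held for 8 of the 10 members, all except Fabp5 and Tyrobp. They were searched on both strands for GAGGAA, a core bound by the myeloid ETS factor PU.1, for TGANTCA, the AP-1 site, for the E-box CACGTG, and for the M-box TCATGTG of the MITF and TFE family that drives lysosomal genes. GAGGAA occurred in the windows of 4 of the 8 members, Trem2, Clec7a, Cd63 and Ly6c2, and in 28.3% of all 32851 promoter windows. TGANTCA occurred in 3 of the 8, Trem2, Itgax and Gpnmb, and in 7.81% of all windows. The E-box and the M-box occurred in none of the 8, against 7.15% and 3.77% of all windows. A member was counted when any of its windows held a match, whereas the shares are per window, so the measures differ. The 150 bases before the outermost annotated start are shown for Trem2, Clec7a, Itgax and Ly6c2. Clec7a and Itgax were the members whose levels followed that of Trem2 most closely over the 6 livers. Ly6c2 was the member that did not pass the test. Capitals mark GAGGAA, or TTCCTC where it is on the other strand, and TGANTCA. No matches overlapped in the windows shown. A match is a run of letters and not a shown binding site.
Trem2, chr17:48346251-48346400, forward strand: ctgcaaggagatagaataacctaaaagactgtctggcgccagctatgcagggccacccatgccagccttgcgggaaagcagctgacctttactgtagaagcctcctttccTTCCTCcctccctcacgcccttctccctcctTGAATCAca
Clec7a, chr6:129472786-129472935, reverse strand: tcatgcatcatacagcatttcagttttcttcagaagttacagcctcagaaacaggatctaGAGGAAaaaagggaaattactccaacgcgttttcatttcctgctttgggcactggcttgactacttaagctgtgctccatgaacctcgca
Itgax, chr7:128129376-128129525, forward strand: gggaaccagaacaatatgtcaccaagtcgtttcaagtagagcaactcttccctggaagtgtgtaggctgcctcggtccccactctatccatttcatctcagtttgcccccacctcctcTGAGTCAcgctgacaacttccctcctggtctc
Ly6c2, chr15:75112067-75112216, reverse strand: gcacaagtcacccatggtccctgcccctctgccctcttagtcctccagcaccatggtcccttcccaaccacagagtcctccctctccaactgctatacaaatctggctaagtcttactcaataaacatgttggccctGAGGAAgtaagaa

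The comparison of AAV8-TBG-Cre with AAV8-TBG-GFP showed higher levels of 9 of the 10 members in the Cre livers. Trem2, Tyrobp, Clec7a, Itgax, Gpnmb, Cd9, Cd63, Fabp5 and Lgals3 rose by a fitted 2.20-fold to 4.84-fold, and Ly6c2 did not pass the test. A gene is said here to have risen or fallen when edgeR's quasi-likelihood test, fitted over all 13431 tested genes, gave an unadjusted p under 0.05 together with a 1.2-fold or larger difference, the study's own rule. Of all tested genes, 12.0% rose and 8.41% fell by this rule. At a Benjamini-Hochberg adjusted p under 0.05 only Tyrobp was called, where 0.484% of all tested genes were called higher and 0.447% lower. The median log2 fold change was 1.72 over the 10 members and -0.0065 over all tested genes. In 8 of the 10 members every Cre liver was above every GFP liver, which held for 14.0% of all tested genes. An exact two-sided permutation test of 3 against 3 livers cannot go below 0.1, the value reached by these 8. The adjusted call depended on the tool and the livers. DESeq2 called 8 members at an adjusted p under 0.05, all except Gpnmb and Ly6c2, whereas edgeR called none (9 at the unadjusted rule) when its scaling was RLE. With edgeR, 8 were called without Cre replicate 1 and none without any other single library, GFP replicates 1, 2 and 3 and Cre replicates 2 and 3, in which 7 to 9 passed the unadjusted rule. The share of all genes past the adjusted threshold was taken for the main fit only. By the unadjusted rule, 2747 genes were called in the main fit, 2976 in DESeq2 and 3730 without Cre replicate 1. In bulk liver, more cells of a type and more RNA per cell cannot be told apart.

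**Figure D1:**
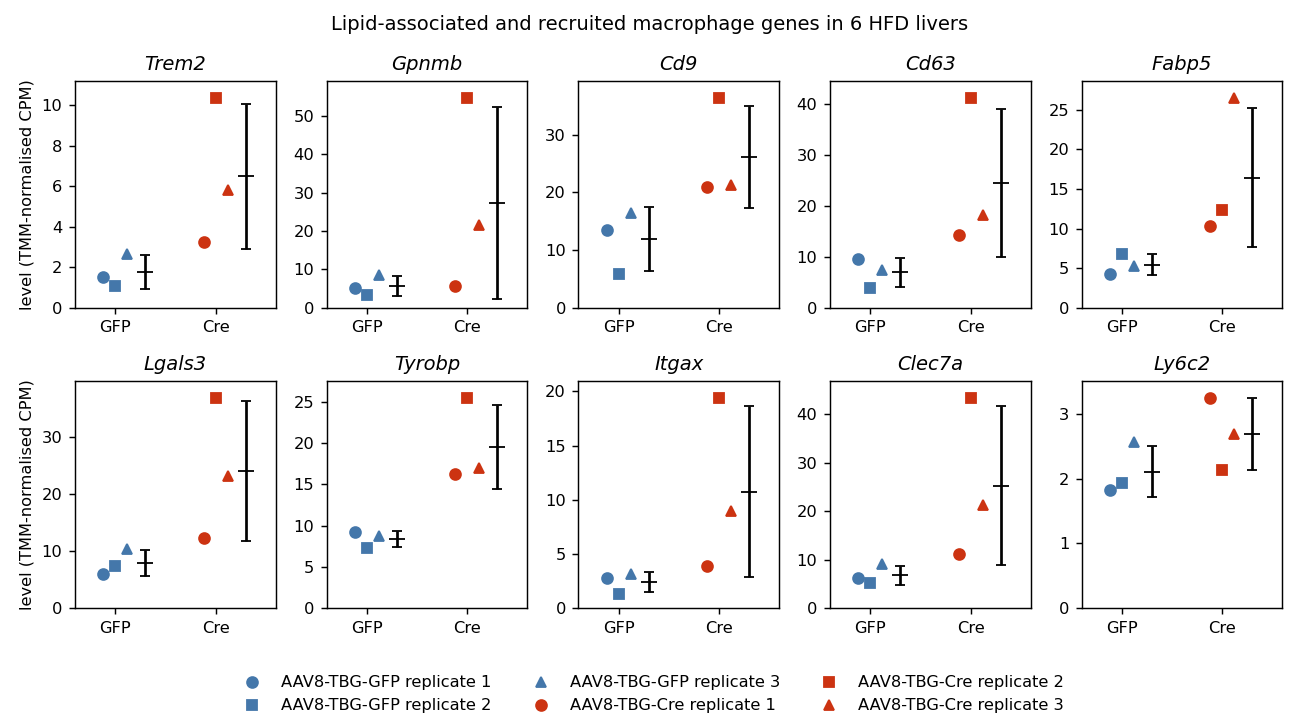
Level of each of the 10 genes in every liver, in TMM-normalised CPM on a linear axis from 0, for the AAV8-TBG-GFP (blue) and AAV8-TBG-Cre (red) groups, where the shape of a point gives the replicate and the black bar the mean ± SD (n = 3). The groups do not overlap in 8 of the 10 panels, and Cre replicate 2 is the highest liver in 8 of them.

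Among the receptors, Trem2 had 1.52, 1.07 and 2.67 CPM in the 3 GFP livers and 3.25, 10.4 and 5.82 CPM in the 3 Cre livers. All 3 Cre livers were above all 3 GFP livers, and the Cre livers spread over a wider range. The log2 fold change of Trem2 was 1.89 (SE 0.49), with an adjusted p = 0.0923 (edgeR). These levels rest on 30, 21 and 51 fragments with GFP and 68, 252 and 121 with Cre.

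Tyrobp, the adaptor of TREM2 and of other myeloid receptors, had the change with the smallest standard error of the members. It had 9.25, 7.35 and 8.69 CPM with GFP and 16.3, 25.5 and 17.0 CPM with Cre, or 8.43 ± 0.978 against 19.6 ± 5.10 CPM (SD, n = 3 each). The lowest Cre liver lay well above the highest GFP liver, by more than the spread of the GFP livers. The log2 fold change was 1.22 (SE 0.20), and Tyrobp was the 1 member past the adjusted threshold (edgeR, adjusted p = 0.0444).

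Clec7a, the receptor for fungal beta-glucans that is also induced in lipid-associated macrophages, had 6.20, 5.20 and 9.0 CPM with GFP and 11.2, 43.3 and 21.2 CPM with Cre. The groups did not overlap, and the order of the Cre livers was that of Trem2. Its log2 fold change was 1.90 (SE 0.47, edgeR, adjusted p = 0.0854). Without Cre replicate 2 it was 1.25, still past the unadjusted rule.

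The other genes of this signalling branch were described by a list of 20 adaptors, kinases, effectors and receptors, of which 14 could be tested. Of these, 7 rose, none fell, and the median log2 fold change was 0.77, or 0.54 without Cre replicate 2. Fcer1g, the sister adaptor of TYROBP, rose from 11.8 ± 1.14 to 22.9 ± 7.50 CPM (SD, n = 3 each; log2 fold change 0.96, SE 0.22, edgeR, adjusted p = 0.0789). Syk, the kinase that both receptor routes share, rose from 5.86 ± 0.499 to 11.7 ± 4.23 CPM (log2 fold change 1.00, SE 0.26, adjusted p = 0.0916). Neither passed the adjusted threshold, and the receptors Trem1, Trem3, Treml2 and Clec5a were among the 6 genes too low to test.

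Itgax encodes CD11c, the alpha chain of a leukocyte integrin found on dendritic cells and on macrophages of obese tissue. It had 2.74, 1.33 and 3.14 CPM with GFP and 3.87, 19.4 and 9.0 CPM with Cre. The groups did not overlap, but Cre replicate 1 was within 1 CPM of the highest GFP liver. The log2 fold change was 2.16 (SE 0.59, edgeR, adjusted p = 0.101), and 1.42 without Cre replicate 2, where Itgax still passed the unadjusted rule. The 3 related integrin genes that could be tested all rose. Itgb2, the beta chain that pairs with CD11c, went from 7.33 ± 0.371 to 14.4 ± 6.34 CPM (log2 fold change 0.98, SE 0.29, adjusted p = 0.123), and Itgam, which encodes CD11b, from 1.37 ± 0.189 to 3.70 ± 1.66 CPM (log2 fold change 1.44, SE 0.35, adjusted p = 0.0854).

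Genes of a list of dendritic cell markers were also higher with Cre, class II genes and others, while Xcr1, Clec9a and Zbtb46 did not pass. Of 11 tested markers, 7 rose and none fell, with a median log2 fold change of 1.25 and a summed level of 138 to 177 CPM with GFP and 262 to 713 CPM with Cre. Without Cre replicate 2 that median was 0.74. The class II genes H2-Aa and H2-Ab1 led the list, and H2-Aa rose from 28.1 ± 3.91 to 90.5 ± 47.7 CPM. The markers of conventional dendritic cells Xcr1, Clec9a and Zbtb46 had log2 fold changes of 0.29, 0.11 and 0.10 and did not pass. The part of dendritic cells in the Itgax and Clec7a levels was not tested.

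Among the lysosomal and tetraspanin members, Gpnmb had the largest fitted change and the widest spread. Gpnmb, a glycoprotein of lysosomes and melanosomes, had 5.03, 3.32 and 8.59 CPM with GFP and 5.58, 54.7 and 21.5 CPM with Cre. Cre replicate 1 lay inside the range of the GFP livers, so the groups overlapped (exact two-sided permutation test, p = 0.2). The log2 fold change was 2.28 (SE 0.74, edgeR, adjusted p = 0.149). Without Cre replicate 2 it was 1.26 and Gpnmb no longer passed the unadjusted rule. It was also lost without GFP replicate 1 (2.20) and without GFP replicate 2 (2.01).

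Cd63, a tetraspanin of late endosomes and lysosomes, had 9.50, 3.83 and 7.49 CPM with GFP and 14.3, 41.1 and 18.1 CPM with Cre, with no overlap. Its log2 fold change was 1.82 (SE 0.46, edgeR, adjusted p = 0.0882), and 1.22 without Cre replicate 2, still past the unadjusted rule. Cd9, a tetraspanin of the plasma membrane used to mark lipid-associated macrophages, had 13.5, 5.82 and 16.4 CPM with GFP and 20.9, 36.4 and 21.2 CPM with Cre. These groups did not overlap either, although 1 GFP liver stood well below the other two. The log2 fold change of Cd9 was 1.14 (SE 0.38, adjusted p = 0.152), the smallest of the 9 members that rose, and without Cre replicate 2 it was 0.82 and no longer passed.

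The other tetraspanins moved in both directions. Of 14 tested, 5 rose and 2 fell, and the median log2 fold change was 0.18, or 0.28 without Cre replicate 2. Tspan8, an epithelial tetraspanin, rose from 1.11 ± 0.483 to 9.89 ± 6.12 CPM (log2 fold change 3.15, SE 0.53, edgeR, adjusted p = 0.0460). The leukocyte tetraspanin Cd53 rose by 0.87 on the log2 scale. Cd81 and Cd82 fell by 0.49 and 0.44 on the log2 scale.

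Fabp5, a fatty acid carrier of macrophages and epithelia, followed another order of livers. It had 4.27, 6.84 and 5.29 CPM with GFP and 10.4, 12.4 and 26.5 CPM with Cre, and was the only member highest in Cre replicate 3. The groups did not overlap, and the log2 fold change was 1.59 (SE 0.37, edgeR, adjusted p = 0.0793). Of the 4 other fatty acid binding protein genes tested, Fabp7 rose (log2 fold change 0.81, SE 0.32), Fabp2 fell by 0.45 on the log2 scale (SE 0.16), and the hepatocyte form Fabp1 and the adipocyte and macrophage form Fabp4 had log2 fold changes of -0.52 and 0.11 and did not pass.

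Lgals3, or galectin-3, is a sugar-binding protein secreted by macrophages and made by bile duct epithelium. It had 5.95, 7.40 and 10.4 CPM with GFP and 12.3, 36.8 and 23.1 CPM with Cre, with no overlap and a log2 fold change of 1.61 (SE 0.39, edgeR, adjusted p = 0.0832). None of 5 tested genes of the galectin family and its binding protein passed in either direction. Lgals1 had 69.7 ± 13.9 CPM with GFP and 44.9 ± 18.6 CPM with Cre (log2 fold change -0.63, SE 0.32, adjusted p = 0.309), and the value of Lgals4 was -0.36 (adjusted p = 0.408).

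Ly6c2, the Ly6C antigen of recently arrived monocytes, stood apart from the other members. It had 1.83, 1.94 and 2.57 CPM with GFP and 3.25, 2.14 and 2.70 CPM with Cre. The groups overlapped, and the liver highest for most other members, Cre replicate 2, was the lowest Cre liver. The log2 fold change was 0.35 (SE 0.26, edgeR, adjusted p = 0.504). The estimated counts of Ly6c2 were not whole in any of the 6 libraries, which occurs when fragments are divided between genes of similar sequence, so its level is less certain than those of Cd9, Cd63, Fabp5 and Tyrobp, whose counts were whole in all 6.

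Other genes of recruited monocytes and their progeny did rise. Of 15 tested, 9 rose and none fell, with a median log2 fold change of 0.95, or 0.62 without Cre replicate 2, and none passed edgeR's test at an adjusted p under 0.05. Their summed level was lower with Cre, at 2210 to 2541 CPM against 2724 to 3154 CPM with GFP. Most of that sum was Fn1, or fibronectin, which hepatocytes also make in quantity. Fn1 had 2755 ± 252 CPM with GFP and 2107 ± 217 CPM with Cre, with every Cre liver below every GFP liver, and did not pass (log2 fold change -0.39, adjusted p = 0.263). Ccr2, the receptor that draws monocytes out of the marrow, had 1.98, 1.38 and 2.51 CPM with GFP and 3.77, 8.58 and 3.80 CPM with Cre (log2 fold change 1.46, SE 0.40, edgeR, adjusted p = 0.102). Cx3cr1, a chemokine receptor of monocytes and their progeny, had 2.74, 1.43 and 2.46 CPM with GFP and 4.58, 12.2 and 5.34 CPM with Cre (log2 fold change 1.74, SE 0.43, adjusted p = 0.0858). Neither gene overlapped between the groups. Lyz2, the lysozyme of myeloid cells, rose from 43.0 ± 6.10 to 123 ± 64.1 CPM (adjusted p = 0.0697), and Ms4a6c from 4.27 ± 0.397 to 8.25 ± 2.06 CPM (adjusted p = 0.0747). Ly6c1, the close relative of Ly6c2, had a log2 fold change of 0.45 and did not pass.

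The 3 Cre livers differed among themselves. Relative to the mean of the GFP livers, the 10 members stood at a median of 1.70-fold in Cre replicate 1 (range 0.989 to 2.06), 5.27-fold in Cre replicate 2 (1.01 to 9.69) and 3.02-fold in Cre replicate 3 (1.28 to 4.85). Cre replicate 2 was the highest liver for 8 members, and Cre replicate 1 was still above every GFP liver for 9. Without Cre replicate 2, 7 of the 10 members rose. Library names in the labels came in a shorter form for 3 livers (GFP replicates 1 and 2, Cre replicate 1) and a longer form for the other three. The labels do not say what the form stands for. Within the shorter form all 10 members were higher with Cre, with a median log2 ratio of 0.95. Within the longer form 9 were higher, with a median of 1.72, and Ly6c2 had a log2 ratio of -0.087. With the name form as a covariate, the log2 fold changes were 1.47 for Trem2, 1.37 for Gpnmb, 1.13 for Tyrobp and 1.42 for Clec7a. Each of these 4 values lay below that of the fit without the covariate.

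**Figure D2:**
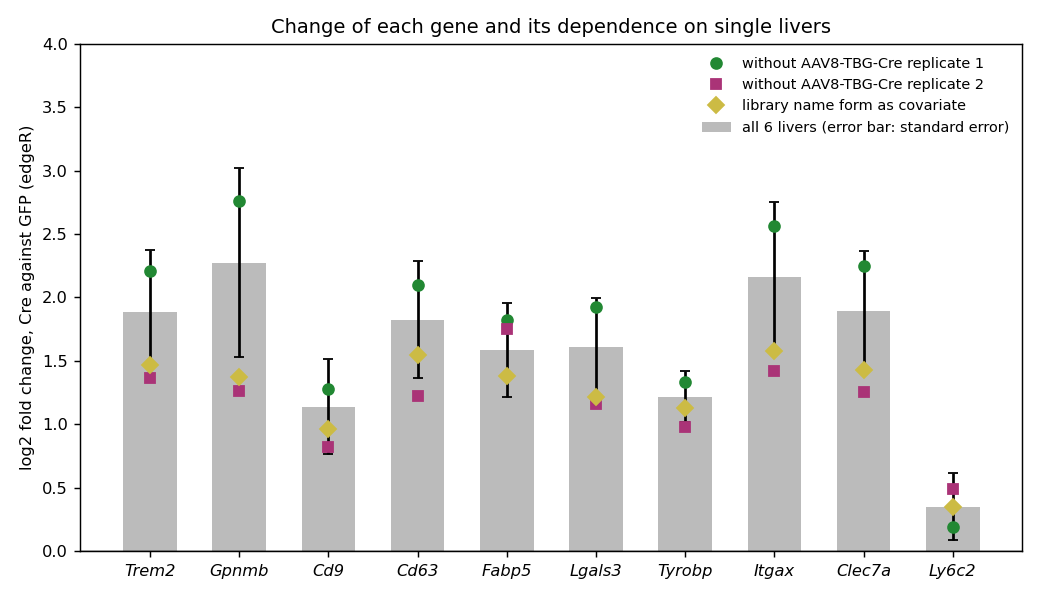
Log2 fold change of each gene, AAV8-TBG-Cre against AAV8-TBG-GFP, from edgeR with all 6 livers (bars, with the standard error) and from 3 other fits (points). Leaving out Cre replicate 2 lowers the value of Gpnmb from 2.28 to 1.26, and every value in the plot stays above 0.

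The members were next set against general macrophage genes. Of 6 pan-macrophage markers, 5 rose, with a median log2 fold change of 0.80 and a summed level of 81.7 to 98.1 CPM with GFP and 119 to 192 CPM with Cre. Without Cre replicate 2 the median was 0.49. Cd68, a lysosomal glycoprotein of macrophages, had 12.3, 11.6 and 14.7 CPM with GFP and 18.2, 45.7 and 24.9 CPM with Cre (log2 fold change 1.2, edgeR, adjusted p = 0.0962). The receptor for the macrophage growth factor CSF1, Csf1r, rose from 42.0 ± 6.85 to 67.4 ± 17.5 CPM (log2 fold change 0.68, adjusted p = 0.124). Adgre1, which encodes F4/80, overlapped between the groups (log2 fold change 0.60, adjusted p = 0.220).

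Resident Kupffer cell markers moved in both directions. Of 16 tested, 6 rose and 1 fell, with a median log2 fold change of 0.33, or 0.19 without GFP replicate 3. Clec4f had 43.1, 56.8 and 35.2 CPM with GFP and 63.6, 53.1 and 48.3 CPM with Cre, and Timd4 5.34, 5.46 and 2.93 against 6.11, 5.79 and 4.91 CPM. Both overlapped between groups, with a log2 fold change of 0.29 each (edgeR, adjusted p = 0.431 and 0.571). Cd5l, a secreted protein of Kupffer cells, rose from 48.9 ± 2.59 to 79.8 ± 9.74 CPM (log2 fold change 0.71, SE 0.12, adjusted p = 0.0471). Cd163, the haptoglobin-haemoglobin scavenger receptor, fell from 5.92 ± 1.46 to 1.28 ± 0.298 CPM (log2 fold change -2.21, SE 0.28, adjusted p = 0.0330). It moved against the members in all 3 Cre livers.

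The level of each member relative to these lists was taken as its log2 CPM minus the mean log2 CPM of the list in the same liver. Relative to the 6 pan-macrophage markers, whose own mean was 0.73 higher with Cre, Tyrobp was 0.46 higher and Cd63 1.03 higher with no overlap between the groups (exact two-sided permutation test, p = 0.1 each, the smallest possible). The other 7 members that rose were 0.48 to 1.22 higher with overlapping groups. Ly6c2 was at -2.14 ± 0.26 with GFP and -2.53 ± 0.69 with Cre (SD, n = 3 each), a difference of -0.39. That difference rested on Cre replicate 2, since it was 0.0050 without that library. The 0.48 of Cd9 was 0.065 without GFP replicate 2, the 0.75 of Fabp5 was 0.22 without Cre replicate 3, and the 1.10 of Gpnmb was 0.57 without Cre replicate 2 and 1.86 without Cre replicate 1. The 1.03 of Cd63 was 0.68 without GFP replicate 2. Relative to the 16 Kupffer cell markers, whose mean was 0.19 higher with Cre, Tyrobp, Cd63 and Fabp5 were 1.00, 1.57 and 1.29 higher without overlap, and the value of Fabp5 was 0.81 without Cre replicate 3. Trem2 was 1.62 higher relative to the same markers, with Cre replicate 1 inside the GFP range (exact permutation test, p = 0.2). With both lists, 20 such ratios were computed, and a p of 0.1 cannot pass a correction for that number.

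**Figure D3:**
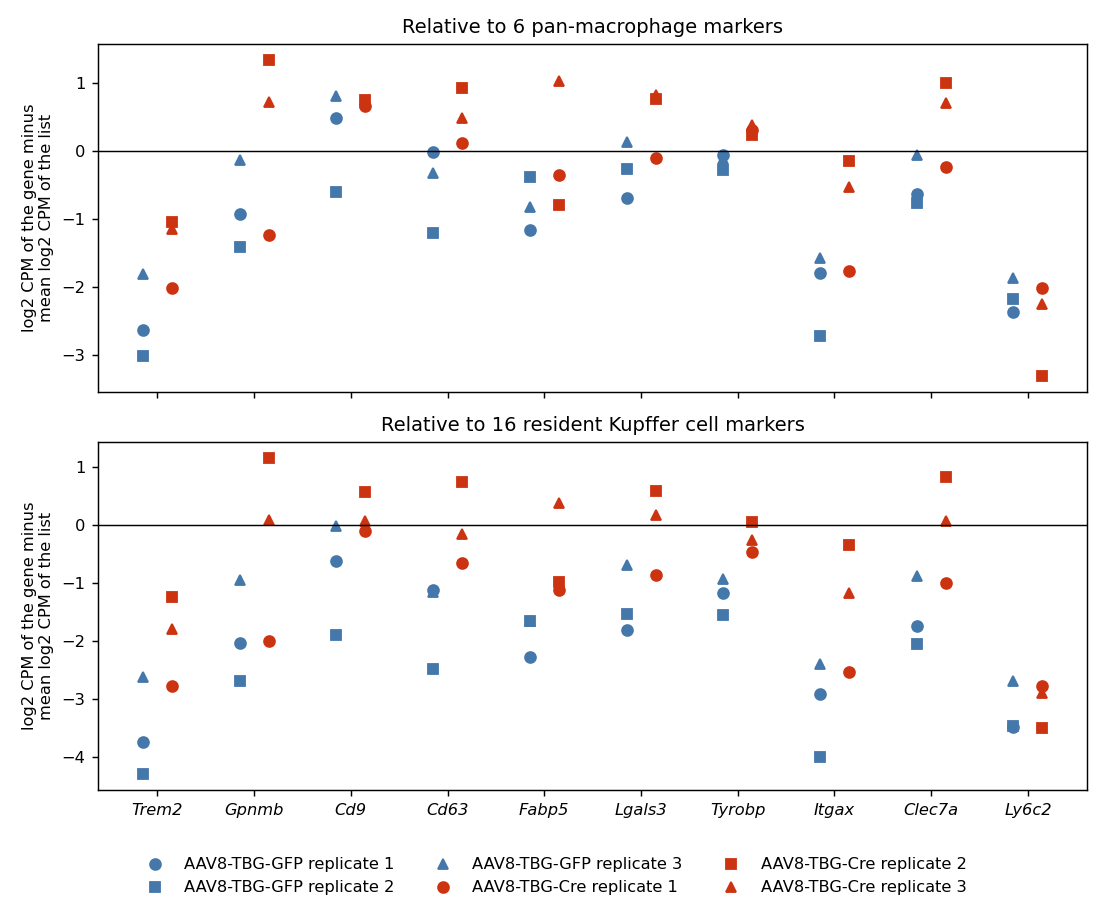
Log2 CPM of each gene minus the mean log2 CPM of the 6 pan-macrophage markers (top) or of the 16 resident Kupffer cell markers (bottom), one point per liver with its replicate given by shape. Tyrobp and Cd63 separate the groups in both panels, whereas the groups of Ly6c2 overlap in both.

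Further genes of the lipid-associated program, fixed as a list of 22 with the members left out, rose in 14 cases and fell in none, with a median log2 fold change of 0.74. Lpl, the lipoprotein lipase made by foamy macrophages and other cells, had 16.9, 12.7 and 26.3 CPM with GFP and 81.8, 181 and 90.3 CPM with Cre (log2 fold change 2.66, SE 0.38, edgeR, adjusted p = 0.0363). Spp1, or osteopontin, which is also a bile duct gene, had 89.0, 38.0 and 73.3 CPM with GFP and 295, 457 and 219 CPM with Cre (log2 fold change 2.28, SE 0.37, adjusted p = 0.0444). These were the 2 genes of the list past the adjusted threshold, and neither overlapped between the groups. The matrix protease Mmp12 rose by a log2 fold change of 2.05 and the lysosomal protease gene Ctss by 1.51. The lysosomal and lipid genes Lipa, Ctsb, Ctsd, Cd36, Apoe and Plin2 had log2 fold changes between -0.53 and 0.24 and did not pass, and the lipid-droplet gene Plin2 had the lowest of these.

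Markers of other cell types that can express the members moved as well. Lgals3, Cd9, Cd63 and Fabp5 are also epithelial genes, and of 9 tested cholangiocyte markers 8 rose, with a median log2 fold change of 2.39. Their summed level was 79.2 to 132 CPM with GFP and 314 to 584 CPM with Cre, and none was at 0 in all libraries. Spp1, whose levels are given above, is counted in this list too and made up most of the sum in every Cre liver. Sox9 rose from 9.09 ± 1.56 to 28.1 ± 9.52 CPM (edgeR, adjusted p = 0.0454), and Cldn4, at 1 to 2 fragments in each GFP library, had 1.48, 7.97 and 2.45 CPM in the Cre livers. Of 11 stellate cell and fibroblast markers 6 rose and none fell (median log2 fold change 1.04), with summed levels of 248 to 379 against 489 to 1030 CPM. Col1a2 rose from 23.6 ± 7.20 to 86.7 ± 40.0 CPM and Col3a1 from 43.2 ± 15.0 to 184 ± 100 CPM. Of the 11, 8 had a positive log2 fold change. Acta2 had a log2 fold change of -0.37 with overlapping groups and did not pass. Cre replicate 2 was the highest liver in the sums of both lists, as it was for 8 members. The part of these cells in the members' levels was not tested.

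Neutrophil, lymphocyte, endothelial and fat markers were followed as well. Of 10 neutrophil markers only 5 could be tested, of which 3 rose and Ly6g fell. The summed level of the list was 15.4 to 16.9 CPM with GFP and 21.9 to 22.6 CPM with Cre. S100a8, at a low level in both groups, rose from 0.274 ± 0.0281 to 1.2 ± 0.0877 CPM (edgeR, adjusted p = 0.0409). Only 4 of 11 lymphocyte markers could be tested, of which Cd79a and Cd8a rose and Cd4 fell, and their sum stayed at or below 7.31 CPM in every liver. Of 8 endothelial markers none rose and Stab2 fell. Of 6 adipocyte markers 3 could be tested, of which Cfd and Cidea fell. Cfd went from 18.1 ± 7.97 to 0.668 ± 0.0825 CPM (edgeR, adjusted p = 0.0149) and Cidea from 8.97 ± 5.09 to 0.431 ± 0.127 CPM (adjusted p = 0.0330). Adipoq and Plin1 were too low to test. Adipoq went the other way, with 0.254, 0.204 and 0.366 CPM with GFP and 0.477, 0.575 and 0.433 CPM with Cre. Plin1 overlapped between the groups. Of 8 hepatocyte markers Cps1 rose and Ttr fell, and the median log2 fold change of 0.032 lay between -0.084 and 0.12 when 1 library was left out. By the same rule 12.0% of all tested genes rose and 8.41% fell, so 1 gene of 8 in either direction is near that share.

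**Figure D4:**
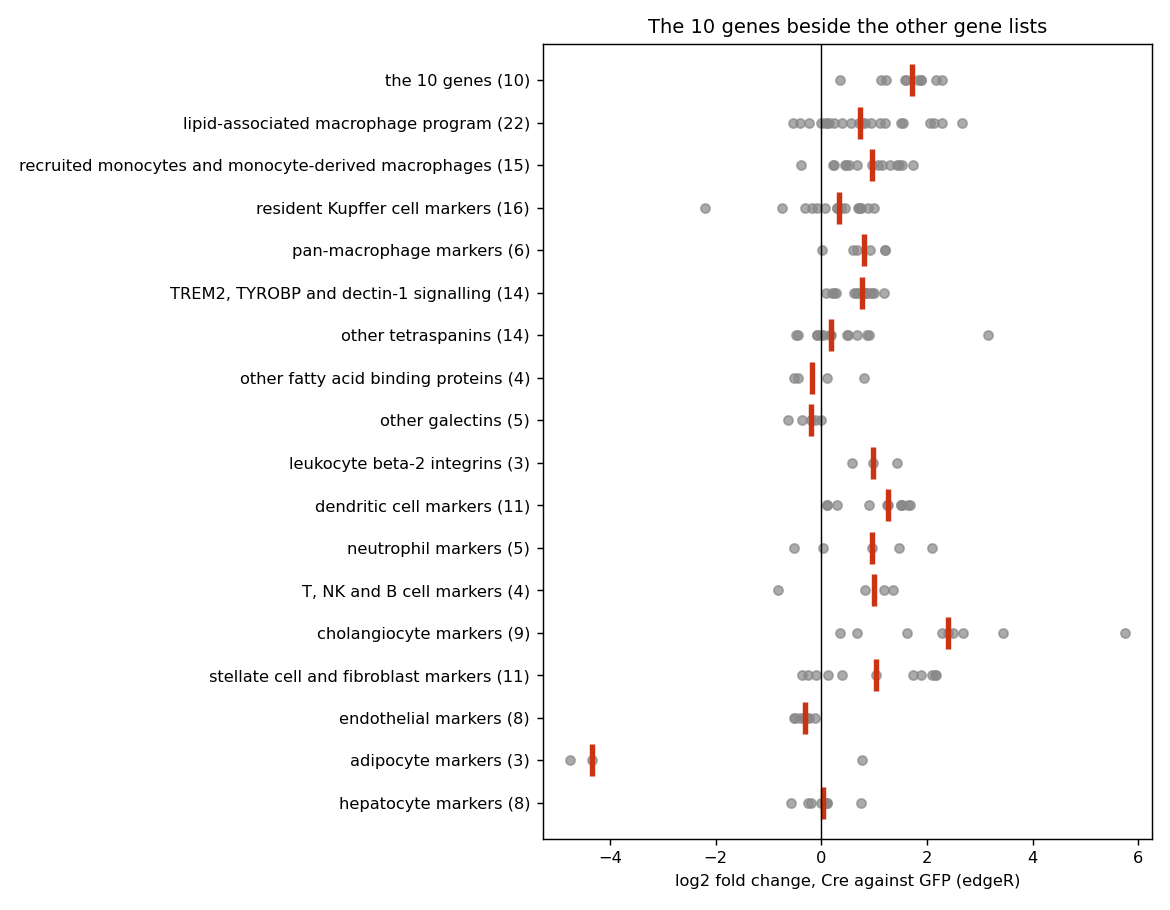
Log2 fold change of every tested gene (grey points) in the 10 genes and in each list, with the list's median (red tick) and the number of tested genes in brackets. The median of the 10 genes is 1.72, above the 0.33 of the resident Kupffer cell markers (0.19 without GFP replicate 3) and below the 2.39 of the cholangiocyte markers.

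Levels of different genes were compared in FPKM, which divides by transcript length. With GFP the order of the mean levels was Tyrobp (14.2 ± 1.75 FPKM), Cd9 (8.63 ± 3.86), Cd63 (7.28 ± 3.10), Fabp5 (5.41 ± 1.28), Lgals3 (5.37 ± 1.40), Clec7a (2.96 ± 0.781), Ly6c2 (2.32 ± 0.373), Trem2 (1.52 ± 0.663), Gpnmb (1.38 ± 0.617) and Itgax (0.553 ± 0.212; SD, n = 3 each). Neighbours in this order overlapped in their livers, except Tyrobp with Cd9, Lgals3 with Clec7a, and Gpnmb with Itgax. With Cre, Tyrobp remained first at 37.7 ± 13.7 FPKM and Itgax last at 2.92 ± 2.41 FPKM. Ly6c2, at 3.28 ± 0.499 FPKM, moved from seventh to ninth place, below Gpnmb at 7.93 ± 7.93 and Trem2 at 6.55 ± 4.21 FPKM.

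Transcripts were resolved for a few members. For 7 members all fragments were assigned to 1 RefSeq transcript. Trem2 had 88.6% of its fragments on NM_031254 and 11.4% on NM_001272078. The second transcript was given 49 fragments in Cre replicate 2 and 6.36 to 6.40 in Cre replicate 3 and GFP replicate 3, the 3 libraries with the longer name form, and none in the other three. Clec7a had 95.1% on NM_001309637. The fragments of Lgals3 were divided between NM_001145953 (45.6%) and NM_010705 (54.4%), and the division went from 117 and 0 in GFP replicate 1 to 0 and 145 in GFP replicate 2. Such a swing between livers of 1 group leaves the share of each Lgals3 transcript undetermined, while the sum per gene is what the comparison used.

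Over the 6 livers, the log2 CPM of the other members followed that of Trem2 with a Pearson correlation of 0.987 for Clec7a, 0.980 for Itgax, 0.967 for Lgals3, 0.952 for Gpnmb, 0.942 for Cd63, 0.934 for Tyrobp, 0.926 for Cd9, 0.710 for Fabp5 and 0.385 for Ly6c2. The points share the difference between the vectors and the library composition, and the values are a description of these 6 libraries. Among 11245 tested genes with a mean log2 CPM of at least 1, 427 had a correlation with Trem2 of at least 0.9. The 5 closest were Sgk1 (0.997), Cd48 (0.994), Rab32 (0.993), Ptpre (0.991) and Shroom3 (0.991). Sgk1, a kinase induced by steroids and stress, had 15.4, 14.3 and 16.9 CPM with GFP and 18.1, 23.7 and 21.1 CPM with Cre, a log2 fold change of 0.43 against 1.89 for Trem2. Its pattern over the livers was the same as that of Trem2 in order but smaller in size.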

How the data were processed

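Liver RNA of 6 mice was sequenced on the DNBSEQ platform. For each liver the authors deposited expected counts of fragments by transcript, which are estimates that may be fractional and carry no normalization. They also deposited FPKM by transcript and by gene, scaled by the authors to transcript length and library size. The submitters' processing notes name HISAT2, Bowtie2, RSEM and mm10, whereas the study's methods name STAR, HTSeq and DESeq2, and which made the deposited values is not given in the sources used here. Aligner choice and the division of shared fragments affect paralogs such as Ly6c2.

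Expected counts were summed per NCBI gene ID and rounded. Groups followed the vector in the sample labels. edgeR 4.0.16 in R 4.3.3 (TMM, filterByExpr, glmQLFit and glmQLFTest, vector as the only factor) gave the main test over 13431 genes, with Benjamini-Hochberg adjustment over all of them. Standard errors were derived from the F statistic. Log2 CPM used a prior count of 0.5. FPKM served for levels between genes. DESeq2 1.42.0 and limma 3.58.1, on log2(FPKM + 1) or log2(FPKM + 0.1) of genes with at least 0.5 FPKM in 3 libraries, were alternatives. Fold changes on log2(FPKM + 1) can understate those of low genes, as for Itgax at 1.17 against 2.16 in edgeR. Ly6c2, at 0.37 against 0.35, was not lower. The steps were tested on simulated data. The simulated counts were drawn independently, so they do not cover a single liver in which many genes move together. The p-values of edgeR set each difference against the variation between 3 mice per group, estimated partly over all tested genes.

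The 10 members, the gene lists and the tests were chosen with earlier results of these data known, so their direction is not independent evidence. Named genes were the 10 members, Mettl14, the genes of each list with an adjusted p under 0.05 or otherwise the 2 smallest p, a set of defining macrophage genes, and the 5 genes most correlated with Trem2. Other list genes were named after their values were seen. Promoter sequences and coordinates came from RefSeq on GRCm38.p6.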

Additional observations from a re-analysis of the deposited data

How the results depend on the processing

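All 17 alternatives kept 7 to 10 of the 10 members higher at the fold and unadjusted p thresholds, and no member changed direction. The count at an adjusted p under 0.05 was 1 (Tyrobp) in edgeR, 8 in DESeq2, and 0 with RLE or upper quartile scaling, with at least 10 counts in every library, with the replicate block and in the limma fits on log2(FPKM + 1), with and without a filter, and on log2(FPKM + 0.1), although each of these fits called 8 to 10 members at the unadjusted rule. Leaving out 1 library gave 0 to 8. The count was 8 without Cre replicate 1 and 0 without any other single library, with 7 to 9 at the unadjusted rule. The cause was not tested. The number of all genes called at the fold and unadjusted p thresholds was 2747, 1899 to 3730 when 1 library was left out, and 1699 at a fold of 1.5.

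Same-numbered livers had correlations of -0.0063, -0.25 and 0.19, within the range of -0.25 to 0.29 of differently numbered livers. With 3 livers per group, these values cannot exclude that the numbers pair the samples. The replicate block left 8 members at the unadjusted rule, and Gpnmb, at 1.82, was lost. Gpnmb was also lost in limma on log2(FPKM + 1), with and without a filter, at 1.51. Ly6c2 passed the unadjusted rule only in the 3 limma fits, at 0.37 to 0.48 on the log2 scale, where the median of all genes was itself 0.066 to 0.14. Trem2, Ly6c2 and Itgax, with means of 1.76, 2.11 and 2.40 CPM in the GFP livers, are the members that depth limits most.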
